A study of Mus musculus with 4 samples.

Results

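The genes described here serve major histocompatibility complex (MHC) class II antigen presentation in mouse liver. The list holds 8 genes, namely Cd74, H2-Aa, H2-Ab1, H2-Eb1, H2-DMa, H2-DMb1, Ciita and Ctss, and a probe set was taken where the platform annotation gives one of them as its only symbol. This rule found 11 probe sets for 7 genes, out of 22626 probe sets for all genes on the array. H2-DMb1 has no probe set of its own, because the 2 probe sets that carry its symbol also carry that of its neighbour H2-DMb2. The livers came from grown male C57BL6 mice given an adenovirus for lipin 1beta of the mouse or, as control, one for green fluorescent protein (GFP), and were taken on day 6. Each group has 2 arrays, and both groups carry adenovirus, so neither shows an uninfected liver. Every sample is labelled liver, and 3 of the 4 are labelled total RNA, while lipin replicate 2 is labelled polyA RNA, although the study's design text names total RNA for the series. The labels do not say whether the samples of a group are separate mice. The p-values below therefore measure only how far these samples differ, and that spread may be technical.

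MHC class II molecules present peptides from endosomes to CD4 T cells. The alpha and beta chains assemble in the endoplasmic reticulum with the invariant chain, whose remnant is removed in endosomes by proteases and exchanged for antigenic peptide by the DM heterodimer. In liver these genes are expressed mainly by dendritic cells, B cells, Kupffer cells and sinusoidal endothelium, and interferon gamma raises them through the coactivator Ciita. In whole liver RNA, fewer cells of a type and less RNA per cell cannot be told apart.

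Class II genes share a promoter module, in which X and Y boxes bind the regulatory factor X complex and NF-Y and so recruit Ciita. The proximal promoters of the searched members that hold both boxes are shown because the members are usually read as a single regulated set. The arrays ask whether the members' signals moved together. Of the 8 genes, 5 were searched in the RefSeq promoter table (GRCm38.p6), with windows from 250 bases before to 50 after each start. Cd74 was left out of this search, and H2-Ab1 and Ciita had no window in that table. The sequences run 5′ to 3′ from 110 to 20 bases before the start, with capitals on the letters CTNGNAAC of the X box and TGATTGG of the Y box, where N is any base. They lie at chr17:34287844-34287933 on the minus strand for H2-Aa, and on the plus strand at chr17:34305757-34305846 for H2-Eb1 and chr17:34153081-34153170 for H2-DMb1.
H2-Aa: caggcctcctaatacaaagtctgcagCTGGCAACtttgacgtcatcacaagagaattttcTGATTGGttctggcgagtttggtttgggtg
H2-Eb1: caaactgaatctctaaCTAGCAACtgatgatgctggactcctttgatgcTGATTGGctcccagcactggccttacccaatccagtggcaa
H2-DMb1: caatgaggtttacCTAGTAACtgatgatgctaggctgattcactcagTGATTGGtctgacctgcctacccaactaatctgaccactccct
The letters between the capitals number 26 in H2-Aa, 25 in H2-Eb1 and 26 in H2-DMb1. Both strands were searched, and the motifs do not overlap. CTNGNAAC occurred in 13.2% of all 32851 promoter windows and TGATTGG in 7.82%. The first followed by the second on the same strand within 40 bases occurred in 31 windows, or 0.0944%. The windows of H2-DMa and Ctss held neither motif. The letters were chosen after these sequences were read, so the count of 3 genes is a description, and it covers only the 5 genes searched.

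Signals are in arbitrary units, each pair of values below is given as replicate 1 and then replicate 2, and they were scaled by MAS5 to a 2% trimmed mean of 1501 on each array. Hepatocyte markers were bright on every array, and albumin (Alb) read 571407 to 1069105, which matches the liver label. Lpin1, the overexpressed gene, exceeded both GFP arrays only in lipin replicate 2. Its brighter probe set read 7082 and 4632 under GFP and 3854 and 11087 under lipin. Its dimmer one read 2730 and 1430 under GFP and 2261 and 6719 under lipin. Each direction given for lipin therefore rests on the labels. GFP replicate 2 correlated least with the other arrays (mean r 0.731, against 0.781 to 0.793). Its 3' to 5' actin ratio, which rises as RNA degrades, was 4.22 against 1.77 to 2.86 on the others.

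No class II presentation gene passed the test between lipin and GFP livers. For all 10 member probe sets tested, the GFP arrays lay further apart than the means of the groups did, as they did for 64% of all probe sets, and the gap was widest for Cd74. Differences are log2 values, lipin minus GFP, with signals under 119.5 raised to that floor, and they come from limma fitted to 13576 probe sets that passed a filter on mean signal. Of the 11 member probe sets, 10 passed that filter. With limma, 0 of the 10 had an adjusted p under 0.05, and 0 had an unadjusted p under 0.05. Over all probe sets tested, limma called 0 (0%) at the adjusted threshold, and 596 (4.39%) had an unadjusted p under 0.05. The lowest unadjusted p of a member was 0.125, for Cd74. An exact permutation test of a single gene, two-sided, cannot go below p = 0.333 with 2 arrays against 2.

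**Figure D1:**
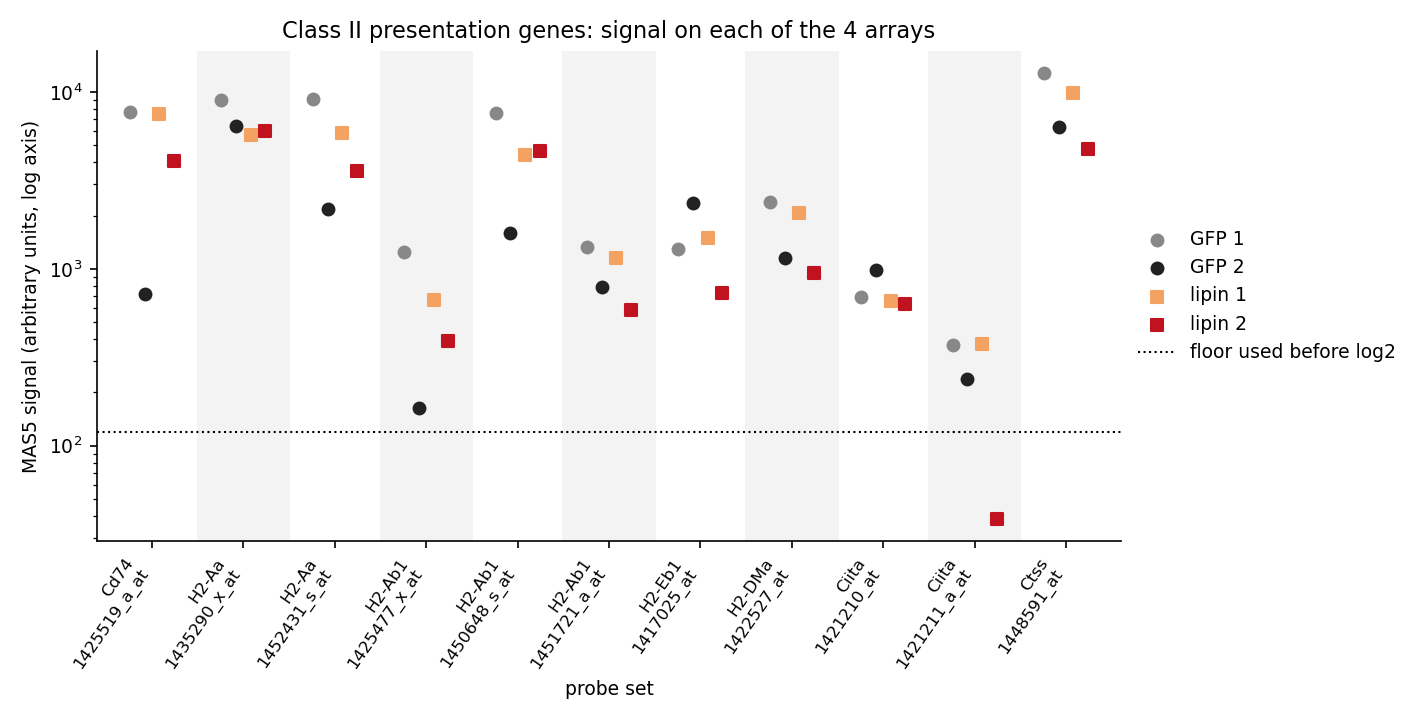
MAS5 signal (arbitrary units, log axis) of the 11 member probe sets, with 1 point per array: circles for the GFP arrays, squares for the lipin arrays, and a dotted line at the floor of 119.5 used before log2. GFP replicate 2 (black) lies far below the other arrays for Cd74 (724 against 4052 to 7700), and only the dimmer Ciita probe set falls under the floor, in lipin replicate 2.

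Cd74 encodes the invariant chain, which fills the peptide groove of new class II molecules and escorts them to endosomes. Its probe set read 7700 and 724 under GFP and 7503 and 4052 under lipin. GFP replicate 2 stood alone at the low end, while GFP replicate 1 was the highest array, so both lipin arrays lay between the GFP arrays. The log2 difference was 1.22 ± 0.75 (SE, n = 2 per group), or 2.34-fold higher in lipin, with a limma adjusted p of 0.962. Without GFP replicate 2 it was -0.48 and without GFP replicate 1 it was 2.93, so the direction rests on a single control array. The value was 0.78 without lipin replicate 1, which is also more than 1.5 times away from the value with all arrays.

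H2-Aa encodes the alpha chain of the I-A molecule, and its pair of probe sets gave different pictures of GFP replicate 2. The first, an x_at probe set, read 8999 and 6460 under GFP and 5680 and 5988 under lipin. Both lipin arrays lay below both GFP arrays here, with a difference of -0.39 ± 0.34 on the log2 scale (limma adjusted p = 0.962). The second, an s_at probe set, read 9088 and 2178 under GFP and 5831 and 3592 under lipin. The lipin arrays again lay between the GFP arrays, and the log2 difference was 0.04 ± 0.54 (limma adjusted p = 0.997). It was -0.99 without GFP replicate 2, -0.31 without lipin replicate 1 and 1.07 without GFP replicate 1, whereas the first probe set stayed below 0 in each such fit, from -0.63 to -0.15. Suffixes x_at and s_at mark probe sets that can match several transcripts, so signal from related transcripts cannot be told apart from that of H2-Aa.

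H2-Ab1 encodes the beta chain that pairs with H2-Aa. Its brightest probe set, an s_at, read 7639 and 1591 under GFP and 4422 and 4643 under lipin, which lay close together and between the GFP arrays. The log2 difference was 0.38 ± 0.56 (limma adjusted p = 0.962), and -0.75 without GFP replicate 2. A dimmer x_at probe set had the same order of the GFP arrays, with 1249 and 163, against 669 and 390 in lipin replicates 1 and 2. The third, an a_at, read 1327 and 790 under GFP and 1158 and 587 under lipin, so that replicate 1 was the higher array of each group. Their log2 differences were 0.18 ± 1.29 and -0.31 ± 0.74. The x_at value turned to -1.29 without GFP replicate 2 and to -0.21 when lipin replicate 1 was left out, and the a_at value to 0.06 without GFP replicate 1 and to 0.18 when lipin replicate 2 was left out. The x_at value turned as well with the floor at the 30th percentile of all signals (-0.11).

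H2-Eb1, the beta chain of the I-E molecule, ran against the other chains in the controls. It read 1293 and 2350 under GFP and 1492 and 725 under lipin, so GFP replicate 2 was its highest array. The log2 difference of -0.74 ± 0.61 (limma adjusted p = 0.962) was the lowest of the members, and it stayed below 0 with each array left out, from -1.27 to -0.22. C57BL6 mice carry a defective H2-Ea, the alpha chain partner of H2-Eb1, so I-E is not assembled in this strain, and RefSeq lists H2-Ea as a transcribed pseudogene. The H2-Ea probe set that passed the filter read 240 and 2173 under GFP and 428 and 249 under lipin. What that probe set hybridised to in GFP replicate 2 was not tested.

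H2-DMa and H2-DMb1 encode the DM heterodimer, which removes the invariant chain remnant and edits the bound peptide. H2-DMa read 2373 and 1152 under GFP and 2056 and 946 under lipin. Replicate 1 exceeded replicate 2 by 2.06-fold in GFP and 2.17-fold in lipin, while the log2 difference between groups was only -0.25 ± 0.60 (limma adjusted p = 0.977). It turned to 0.28 on leaving out GFP replicate 1 and to 0.31 on leaving out lipin replicate 2. The brighter of the probe sets shared by H2-DMb1 and H2-DMb2, which lies outside the rule, read 317 and 749 under GFP and 618 and 331 under lipin. The dimmer one did not pass the filter and read 198 and 652 under GFP and 383 and 161 under lipin. In both shared probe sets GFP replicate 2 was the highest array, unlike H2-DMa.

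Ciita, the coactivator that switches on class II genes, had signals in a narrow range on its brighter probe set, with 691 and 984 under GFP and 662 and 633 under lipin. Both lipin arrays lay below both GFP arrays, and the log2 difference was -0.35 ± 0.83 (limma adjusted p = 0.977), or -0.09 without GFP replicate 2. The dimmer probe set did not pass the filter, and read 371 and 239 under GFP and 375 and 38.5 under lipin. Ctss encodes cathepsin S, the protease that trims the invariant chain in antigen-presenting cells. It read 12795 and 6347 under GFP and 9906 and 4770 under lipin. As with H2-DMa, replicate 1 was the higher array in each group, by 2.02-fold in GFP and 2.08-fold in lipin. The log2 difference of Ctss was -0.39 ± 0.42 (limma adjusted p = 0.962), and it turned to 0.12 when GFP replicate 1 was left out and to 0.14 when lipin replicate 2 was.

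**Figure D2:**
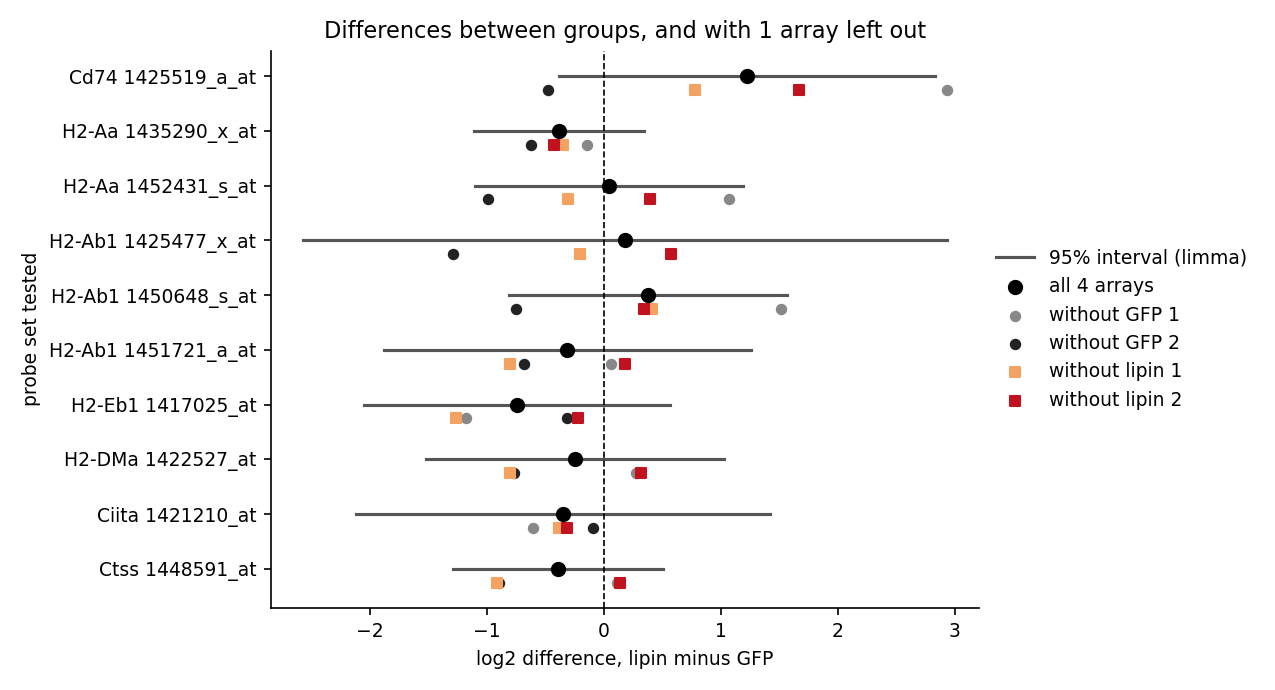
Log2 difference, lipin minus GFP, of the 10 member probe sets tested (black points, with limma's 95% interval as a line), with the value when 1 array is left out drawn just below (circles for a GFP array, squares for a lipin array, and no circle for GFP replicate 1 at the dimmer x_at probe set of H2-Ab1, which then did not pass the filter). Every interval crosses 0, and 3 probe sets (the first of H2-Aa, H2-Eb1 and the brighter of Ciita) keep their sign in all 4 such fits.

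The members did not move one way. Of the 10 tested probe sets, 6 had a log2 difference below 0 (60%, against 49.7% of all probe sets tested), and their median was -0.28, beside 0.0038 over all probe sets. Both lipin arrays lay below both GFP arrays in 2 of 10, for H2-Aa and Ciita, where 15.9% of all probe sets did, and above in 0 of 10, where 17.1% did. The shares of the whole array would come to under 2 of 10 probe sets in each direction. The median of the members turned with the arrays used, from -0.72 without GFP replicate 2 to 0.25 without lipin replicate 2. When GFP replicate 1 was left out it was 0.12 over the 9 probe sets that then passed the filter and 0.20 over all 10, the dimmer x_at probe set of H2-Ab1 being the one that did not pass. Leaving out GFP replicate 2 put all 10 tested member probe sets below 0. The number below 0 came to 8 of 10 on leaving out lipin replicate 1, and to 3 of 10 on leaving out either lipin replicate 2 or GFP replicate 1. The intervals are wide: for the brighter H2-Ab1 probe set the 95% interval of the log2 difference ran from -0.81 to 1.57, and for Ctss from -1.29 to 0.51. Changes of such sizes were not detectable with 2 arrays per group.

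Within the GFP group the gaps between arrays mostly ran the same way. GFP replicate 1 exceeded GFP replicate 2 at least 2-fold in 6 of the 10 tested probe sets, where 17.6% of all probe sets did, and the reverse held in 0 of 10, against 19.1%. The largest gaps were 10.6-fold for Cd74, and 7.67-fold, 4.8-fold and 4.17-fold for the dimmer x_at and the s_at probe sets of H2-Ab1 and the s_at probe set of H2-Aa. A GFP replicate 1 excess as large as that of Cd74, the member with the widest gap, was seen in 0.95% of all probe sets tested. A gap as large in either direction was seen in 1.95%. For the other member probe sets the first share ran from 2.38% (x_at of H2-Ab1) to 77.6% (H2-Eb1), with 17.4% for Ctss. The lipin arrays lay further apart than the group means in 6 of 10, against 56.8% of all probe sets. In the lipin group, replicate 1 exceeded replicate 2 at least 2-fold in 3 of 10 (H2-Eb1, H2-DMa and Ctss), against 15.5% of all probe sets, but in 0 of 10 once each array was centred on its median. The reverse held in 0 of 10, against 12.5%. Replicate 1 was above replicate 2 in both groups for 6 of 10 members, where 25.8% of all probe sets were, and below in both for 0 of 10, where 26.3% were. With the brightest probe set of each gene alone, the counts were 4 of 7 for the GFP gap, 3 of 7 for the lipin gap and 3 of 7 for both groups. GFP replicate 1 was the highest array in 8 of 10, against 20.9%, and GFP replicate 2 the lowest in 4 of 10, against 29.2%. These are comparisons of single arrays, with no test, and probe sets of the same gene share their target. GFP replicate 2 is also the array with the highest actin ratio (4.22) and lipin replicate 2 the one with the polyA label that the design text goes against, and the part of either in these gaps was not tested.

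**Figure D3:**
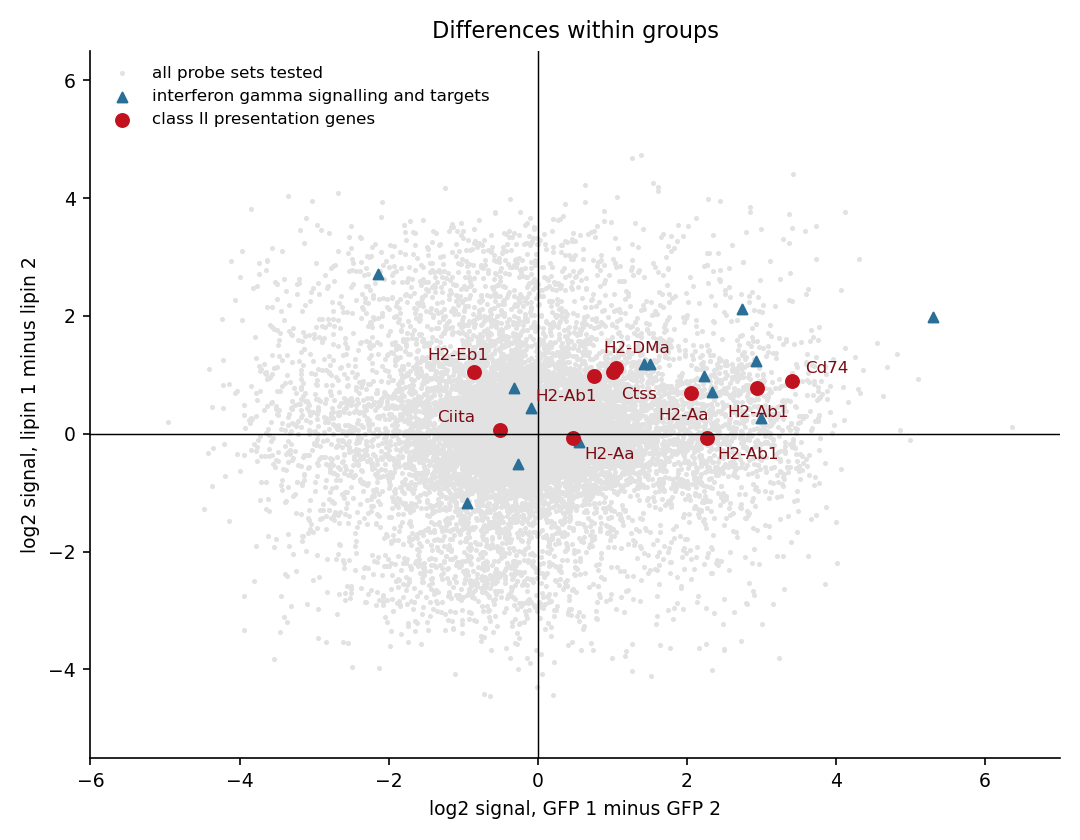
Log2 signal of replicate 1 minus replicate 2 in the GFP group (horizontal) and in the lipin group (vertical), for all 13576 probe sets tested (grey), the 15 tested genes of interferon gamma signalling (blue triangles) and the 10 member probe sets (red, named). Members extend to the right, up to 3.41 for Cd74, and H2-Eb1 and Ciita lie left of 0.

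The rest of the class II pathway was described through lists of other genes, each gene represented by its brightest probe set. In the endosomal processing list, which holds other cathepsins and lysosomal proteins, 0 of 12 tested genes passed in either direction, and the median log2 difference was 0.06. The cathepsin Ctse read 8934 and 3129 under GFP and 2893 and 1272 under lipin, or -1.46 ± 0.53 on the log2 scale (limma adjusted p = 0.962). Ctsz, another cathepsin, read 3434 and 2084 under GFP and 5388 and 4871 under lipin (0.94 ± 0.40, limma adjusted p = 0.962). Ifi30, the thiol reductase that opens disulfide bonds of antigens, and Ctsd, an aspartic protease, had log2 differences of -0.50 ± 0.40 and 0.39 ± 0.33. With 1 array left out in turn, Ctse ranged from -2.22 to -0.71, Ctsz from 0.58 to 1.30, Ifi30 from -0.98 to -0.011 and Ctsd from 0.33 to 0.45. Among Ctse, Ctsz and Ctsd the groups did not overlap, and in Ifi30 they did. Of the 12 tested genes, 3 had both lipin arrays above both GFP arrays, against 17.1% of all probe sets tested. Another 1 of the 12 had both below, against 15.9%.

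The transcription factors that bind class II promoters showed no change that passed, with 0 of 9 tested genes in either direction and a median of -0.18. Nfya, a subunit of NF-Y, which binds the Y box printed above, read 540 and 587 under GFP and 1089 and 1009 under lipin, which differ by 0.90 ± 0.79 on the log2 scale (limma adjusted p = 0.962). Its partner Nfyb gave -0.47 ± 0.66, and Rfxank, of the X box complex, -0.72 ± 0.86. Irf4, a lymphoid factor, gave -0.73 ± 1.46, or 0.67 without lipin replicate 1, where its signal of 99.5 lay under the floor. With 1 array left out in turn, Nfya stayed within 0.84 to 0.96 and Rfxank within -0.92 to -0.52, while Nfyb ranged from -0.87 to -0.066. The other class II region genes were 3, with 0 passing. H2-Oa, a chain of the DO molecule that restrains DM, had 0.40 ± 0.95, and 0.24 to 0.56 with 1 array left out. H2-DMb2 had 0.72 ± 1.17, or -0.62 without GFP replicate 1, and H2-Ea had -1.14 ± 1.30, or 0.45 without GFP replicate 2.

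Interferon gamma signalling and its targets had the same order of arrays in their median deviations as the members. Of 15 tested genes 0 passed in either direction, and the median log2 difference was -0.26. The genes with the smallest p were the kinase Jak1 (-0.67 ± 0.34), the GTPase Iigp1 (-0.92 ± 0.58), the inhibitor Socs1 (-1.75 ± 1.20) and the GTPase Gbp2 (-1.09 ± 0.76), each with a limma adjusted p of 0.962. Without GFP replicate 1, Iigp1 stood at 0.19 and Gbp2 at 0.28, and without GFP replicate 2 at -2.03 and -2.46. With 1 array left out in turn, Jak1 ranged from -0.95 to -0.39 and Socs1 from -3.10 to -0.39. Socs1 read 486 and 2155 under GFP and 780 and 48.6 under lipin, so the groups overlapped and lipin replicate 2 lay under the floor. Ifng itself was too dim to test, with signals of 141 and 41.0 under GFP and 20.2 and 26.8 under lipin. GFP replicate 1 exceeded GFP replicate 2 at least 2-fold in 9 of the 15 (17.6% of all probe sets), and the reverse held in 1 (19.1%). Lipin replicate 1 exceeded lipin replicate 2 at least 2-fold in 7 (15.5%), and the reverse held in 1 (12.5%). Replicate 1 was above replicate 2 in both groups for 9 (25.8%) and below in both for 2 (26.3%). Psmb9, an immunoproteasome subunit encoded in the class II region, read 4995 and 127 under GFP and 3795 and 956 under lipin. Ifngr2, which went the other way, read 925 and 1791 under GFP and 914 and 2055 under lipin. Both were chosen as examples after their values were seen. As median deviations from the mean of the 4 arrays, this list stood at 0.77 and -0.65 under GFP and 0.48 and -0.41 under lipin. The members stood at 0.67 and -0.35 under GFP and 0.33 and -0.31 under lipin.

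Costimulatory molecules, which antigen-presenting cells show beside class II, did not pass either, with 0 of 5 in each direction and a median of -0.78. Cd86 read 637 and 1461 under GFP and 314 and 458 under lipin, or -1.35 ± 0.98 on the log2 scale (limma adjusted p = 0.962). Cd80 gave -0.78 ± 0.67, Icosl -1.20 ± 1.35 and Pdcd1lg2 0.56 ± 1.31, and the last of these was -0.25 without GFP replicate 2 and -0.16 when lipin replicate 1 was left out. With 1 array left out in turn, Cd86 ranged from -1.95 to -0.75, Cd80 from -1.22 to -0.33 and Icosl from -1.75 to -0.65. GFP replicate 2 was the highest array for Cd86, Cd80 and Icosl, in contrast to Cd74.

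**Figure D4:**
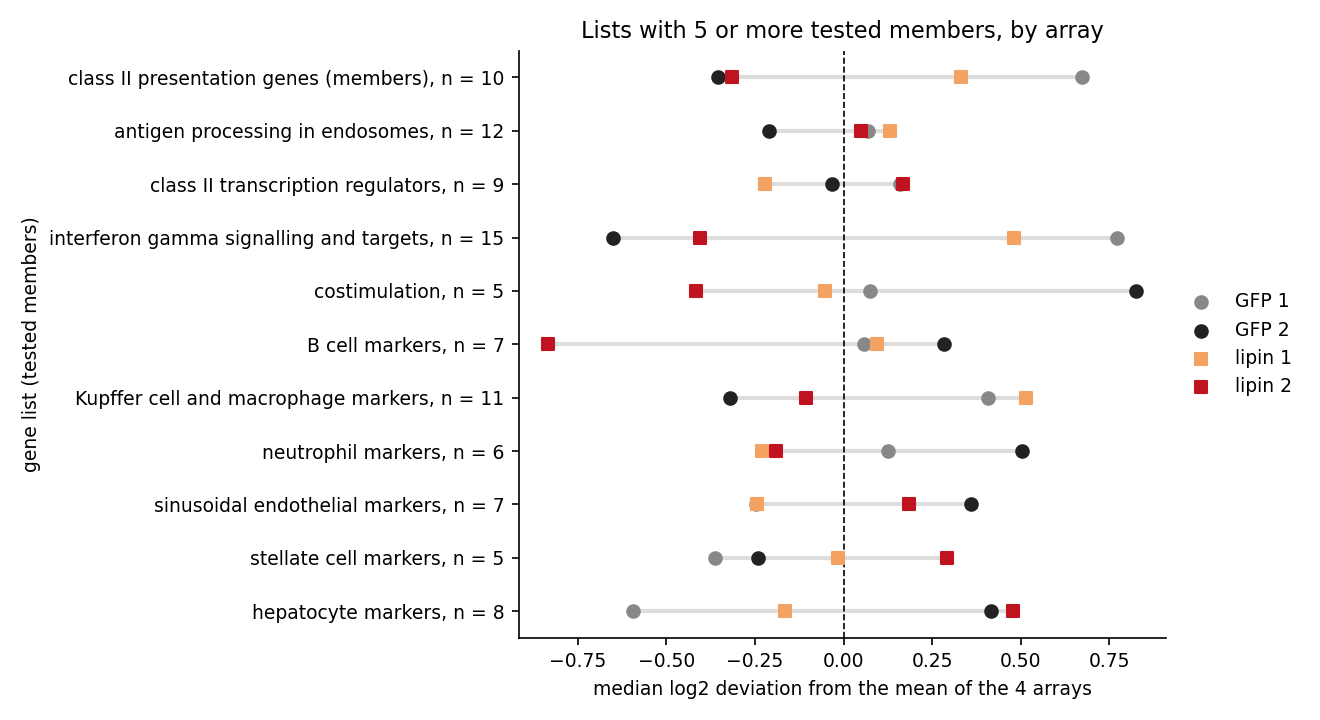
Median log2 deviation from the mean of the 4 arrays, for the members and for each list with at least 5 tested genes, with 1 point per array (circles for GFP, squares for lipin). Members, interferon gamma genes and macrophage markers place both replicate 1 arrays above 0 and both replicate 2 arrays below it. Hepatocyte and sinusoidal endothelial markers place them the other way.

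Markers of the cells that carry class II were read on the same arrays, and their part in the results above was not tested. Kupffer cell and macrophage markers had summed signals of 57927 and 31859 under GFP and 56889 and 38349 under lipin. Each sum in this paragraph covers all genes of its list on the array, also those too dim to test. Of 11 tested markers, 8 were higher in replicate 1 in both groups, against 25.8% of all probe sets. Another 3 (Clec4f, Vsig4 and Fcgr1) were higher in replicate 2 in both, against 26.3%. Replicate 1 was at least 2-fold higher in 4 in GFP (17.6% of all probe sets) and 2 in lipin (15.5%). The reverse held in 2 (19.1%) and 1 (12.5%). Between groups 0 passed, and Cd163 and Marco were too dim to test. The log2 differences of the 11 were above 0 in 7 and below 0 in 4. C1qa, a complement gene of macrophages, read 3056 and 98.0 under GFP and 4039 and 1831 under lipin. Clec4f read 210 and 1245 under GFP and 1413 and 2136 under lipin. Both were chosen after their values were seen. B cell markers summed to 5120 and 8179 in GFP, and 5866 and 2889 in lipin. These sums cover 10 genes, with Blk, Cd37 and Pax5, which did not pass the filter. Single genes weighed in them, such as Ighm with 2534 in lipin replicate 1 and Blk with 1155 in GFP replicate 2. Of the tested B cell markers, 0 of 7 were higher in replicate 1 in both groups, against 25.8% of all probe sets. Of those 7, 2 had a log2 difference above 0 and 5 below. Among the B cell markers the receptor subunit Cd79a was furthest from 0, with 894 and 1217 under GFP and 283 and 220 under lipin, while its partner Cd79b read 456 and 435 under GFP and 391 and 477 under lipin. Both were picked with their values in view. Dendritic cell markers were mostly dim, with 3 of 7 tested and sums of 3255 and 4188 under GFP and 3490 and 4753 under lipin. Of the 3, Itgax (0.61) and Flt3 (0.36) had log2 differences above 0 and Xcr1 (-1.36) below. Itgax read 483 and 1326 in GFP, and 1516 and 981 in lipin. Xcr1 read 824 and 546 in GFP, and 498 and 136 in lipin. Of 8 T cell markers 2 could be tested, and all 8 summed to 1623 and 3800 under GFP and 2600 and 2634 under lipin. Sinusoidal endothelial markers summed to 24244 and 33546 in GFP, and 22173 and 33149 in lipin. Of these, 4 of 7 were higher in replicate 2 in both groups, against 26.3% of all probe sets. Hepatocyte markers ran the same way, with 7 of 8 higher in replicate 2 in both groups, against the same share. By the limma threshold 0 markers passed in the lists of B cells (7 tested), dendritic cells (3), T cells (2), neutrophils (6), sinusoidal endothelium (7), stellate cells (5), cholangiocytes (1) and hepatocytes (8).

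Across 8486 other genes tested, the 5 whose deviations over the 4 arrays lay nearest to the members' median profile were Cyth3, Ranbp1, Mki67, Bub3 and Dld. The measure was the root mean square distance in log2 units, which was 0.036 for Cyth3, 0.037 for Ranbp1, 0.048 for Mki67, 0.055 for Bub3 and 0.057 for Dld. Mki67, the proliferation antigen, read 771 and 396 under GFP and 662 and 392 under lipin. Ranbp1, of nuclear transport, read 5893 and 2823 under GFP and 4339 and 2855 under lipin. Each gene, member or not, was represented here by its brightest tested probe set alone, so other probe sets of H2-Aa and H2-Ab1 can lie at other distances. By the same measure the members lay at 0.17 for H2-DMa, 0.19 for Ctss, 0.34 for H2-Aa, 0.57 for H2-Ab1, 0.59 for Ciita, 0.74 for H2-Eb1 and 1.09 for Cd74.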

How the data were processed

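Liver RNA of 4 samples was measured on Affymetrix arrays. Per the submitters' processing notes MAS5 was used, and the deposited intensity values are its linear signals, with no version or scaling target stated in the sources used here. They were not normalized again. MAS5 signals of dim probe sets are noisy, and detection calls were not used. After removal of 64 control probe sets, the 20th percentile of the signals (119.5) served as a floor before log2. Probe sets whose mean reached the 40th percentile (geometric mean signal 373), 13576 in number, entered limma 3.58.1 (R 4.3.3; lmFit and eBayes with an intensity trend, group as the only term, 12.7 prior and 2 residual degrees of freedom). P-values are two-sided, adjusted by Benjamini-Hochberg across the 13576, and called under 0.05. Changes of dim genes are understated by the floor. On simulated data with the spread of these arrays, the fit returned changes with little bias but called only a minority of the changed probe sets.

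Names came from the platform annotation, in which 20380 probe sets had 1 symbol, 691 had several and 1555 had no entry. Precision is limited by the number of arrays. Named are the member and Lpin1 probe sets, up to 4 genes by smallest p of each pathway list, and the 5 genes nearest in profile. Marker genes given as examples were picked with their values in view. The members and lists were chosen with earlier results of these data known. Alternatives covered normalization, floor, filter, variance model, a threshold of 0.1, 1 probe set per gene, the replicate number as a block and leaving out each array.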

Additional observations from a re-analysis of the deposited data

How the results depend on the processing

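No member passed an adjusted p of 0.05 in limma under any of 13 alternative settings, where the smallest was 0.144. Under the 9 settings that keep all arrays, 88 of 89 member values kept their sign. The exception was the dimmer x_at probe set of H2-Ab1 with the floor at the 30th percentile (-0.11). Many of these signs could not change, because the filter, the variance model and the block leave each difference as it is. A lower floor changed nothing either, as no tested member had a signal under 119.5. Only the normalizations and the higher floor could turn a sign. The x_at probe set of H2-Ab1 did not pass the filter in 2 of the 13 (11 values). With 1 array left out in turn, the log2 difference ranged from -0.48 to 2.93 for Cd74, -0.99 to 1.07 for the s_at probe set of H2-Aa, -1.29 to 0.57 (1.65 without GFP replicate 1, where it did not pass the filter), -0.75 to 1.51 and -0.80 to 0.18 for the x_at, s_at and a_at probe sets of H2-Ab1, -0.81 to 0.31 for H2-DMa and -0.92 to 0.14 for Ctss. The median of the members ranged from -0.72 to 0.25. These fits assume that the lone array of a group varies as the other group's do. Over all probe sets, 0 to 8 were higher and 0 to 6 lower. With the replicate number as a block, 34 were higher and 18 lower, and the smallest adjusted p of a member was 0.191. That fit and the fits without lipin replicate 1 or lipin replicate 2 had infinite prior degrees of freedom, so their spreads came from the intensity trend. The numbers were not taken as a pairing, since the gaps between replicates 1 and 2 correlated at 0.028 between the groups across probe sets tested. The counts of gaps within groups were recomputed under settings chosen after seeing the data. The members with a 2-fold excess of GFP replicate 1 stayed within 1.5 times of 6, from 4 to 7. Those of lipin replicate 1 went from 3 to 0 with median centring, and those higher in replicate 1 in both groups from 6 to 3 with 1 probe set per gene (7 genes). An adjusted p under 0.1 called 0 probe sets in either direction. Signal over background is not known here, which limits readings of dim probe sets.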
